A study of Mus musculus with 2 samples.

Results

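The genes described here encode the fibroblast growth factors (FGF), bone morphogenetic proteins (BMP), growth differentiation factors (GDF), activins and transforming growth factors beta (TGF-beta), with their receptors and extracellular antagonists. They were chosen by name. Every protein-coding gene whose GENCODE M21 symbol is Fgf, Fgfr, Bmp, Gdf, Tgfb or Tgfbr followed by a number was taken, together with Bmpr1a, Bmpr1b, Bmpr2, Acvr1, Acvr1b, Acvr2a, Acvr2b, Inha, Inhba, Inhbb, Nog, Chrd, Grem1 and Fst. The rule named 65 genes, of which 64 were measured among 43346 genes (21474 protein-coding), and Gdf1 was not analysed here. By role the 64 genes were 41 secreted ligands, 14 receptors, 4 antagonists, 4 intracellular FGF homologues (Fgf11 to Fgf14) and 1 protease (Bmp1). The rule uses names alone.

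Total RNA was sequenced from thymus of newborn B6NCrl mice at postnatal day 0, as 1 library from each of 2 pups of the same mother, with both lobes of a pup in its library. These 2 libraries form the only group. The animals carried no stated allele and received no stated treatment, their sex was not recorded, and there is no second tissue, age or treatment to compare with. The comparisons are therefore among the genes, ligands against receptors, and between the libraries of the littermates. Each library was made from 10 ng of RNA with spike-in RNA and molecules above 200 nt, so the spread between libraries joins animal and technical parts.

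FGF proteins bind receptor tyrosine kinases (Fgfr1 to Fgfr4), which signal through the adaptors Frs2 and Grb2 and induce their own feedback inhibitors of the Spry, Spred and Dusp families. BMP, GDF, activin and TGF-beta dimers bring type I and type II serine/threonine kinase receptors together, and the type I receptors phosphorylate Smad factors: Smad2 and Smad3 after TGF-beta and activin, Smad1, Smad5 and Smad9 after BMP. In the thymus, FGF7 and FGF10 from mesenchyme act on epithelial cells through the IIIb form of FGFR2, BMP4 is known for its part in early organ formation and in the upkeep of epithelium, and TGF-beta is known for its actions on regulatory and innate-like T cells.

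Expected counts, the authors' estimated read numbers per gene, added up to 39046411 in replicate 1 and 41576822 in replicate 2. The 64 genes took 19018.84 and 20737.44 of these, or 0.0487% and 0.0499%. Defining genes of thymocytes and of thymic epithelium were each present: all 5 thymocyte markers (summed 1198.1 and 1297.58 TPM) and all 5 epithelial markers (683 and 759 TPM, with the epithelial master regulator Foxn1 at 18.4 and 27.4 TPM) were at 1 TPM or more. TPM is a relative abundance scaled for transcript length and library, so that genes can be compared within a library. Mesenchyme markers were also present (6 of 6, summed 298 and 339 TPM), as were endothelial (3 of 3) and macrophage markers (3 of 3). Of the lists for neighbouring tissue, some differed between the pups: squamous epithelium summed to 50.7 and 1.57 TPM, fat to 7.53 and 0.66 TPM and skeletal muscle to 15.0 and 23.9 TPM. The parathyroid hormone gene Pth was at 54.9 and 28.2 TPM, while the other parathyroid markers, Gcm2 and Casr, were at 0.27 TPM or less. Heart (6.46 and 6.55 TPM), lung and airway (9.90 and 9.64 TPM), cartilage (5.27 and 6.42 TPM) and thyroid (3.02 and 2.23 TPM) differed less. In such bulk tissue, fewer cells of a type and less RNA per cell cannot be told apart.

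Receptors were present at low to moderate levels and most ligands lay below 1 TPM. A gene was counted as detected at 1 TPM or more in both libraries, which held for 23 of the 64 genes (35.9%), against 57.3% of all protein-coding genes and 32.2% of all genes. Of the others, 39 were below 1 TPM in both libraries and 2 (Gdf15 and Acvr1) passed in 1 library only. Detection held for 9 of 41 ligands (22.0%) and for 10 of 14 receptors (71.4%). It held also for 1 of 4 antagonists, 2 of 4 intracellular homologues and the protease. The median level of the ligands was 0.35 TPM in replicate 1 and 0.32 TPM in replicate 2 (0.335 ± 0.0212, SD, n = 2). The median of the receptors was 2.94 and 2.42 TPM (2.68 ± 0.368), beside 2.91 and 2.73 TPM for all protein-coding genes. None of the 64 genes was among the top 10% of protein-coding genes by mean level, and the highest, Fgfr2, stood at a percentile of 75.5. The highest Fgfr2 transcript, Fgfr2-217, starts with 2 exons that lie inside exons of the gene Ctbp2, while its further exons share no base with them. Without the whole of Fgfr2-217, Fgfr2 averaged 13.9 TPM (± 1.24), below Tgfbr2, Tgfbr1, Fgf14 and Fgf21.

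**Figure D1:**
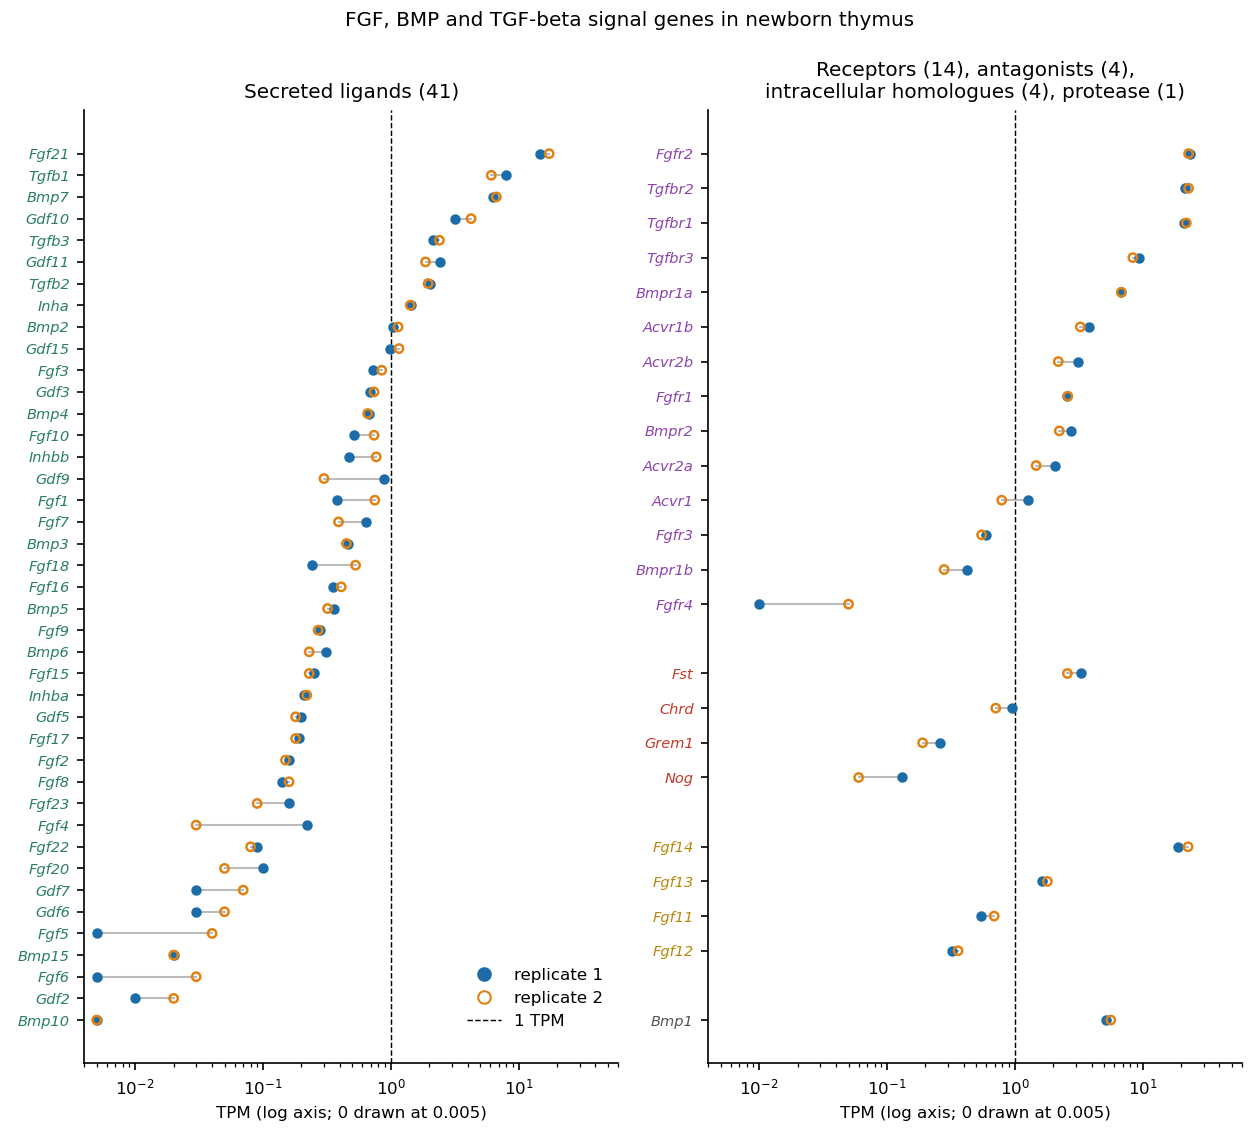
Level of each of the 64 genes in TPM on a log axis (values of 0 drawn at 0.005), filled points for replicate 1 and open points for replicate 2, joined by a line; the left panel holds the ligands and the right panel the other roles. Of the points right of the dashed line at 1 TPM, 9 ligands and 10 receptors have both libraries there, and Fgfr2, Tgfbr2 and Tgfbr1 have the highest means, although Fgf14 at 22.7 TPM lies above Tgfbr1 at 22.0 TPM in replicate 2.

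The ligands split into a short detected group and a long tail. Fgf21, a hormone-like FGF known mainly as a metabolic signal of the liver, was the highest ligand in both libraries at 14.7 and 17.4 TPM (16.05 ± 1.86, SD, n = 2), from 361 and 459 counts. Its gene lies at chr7:45613886-45615490 (GRCm38, minus strand), none of its exon bases is shared with another annotated gene, and its 1 annotated transcript took all of its reads. It lay 2.27-fold above the next ligand, beyond the spread between the libraries. Tgfb1, the TGF-beta made by many immune cells, was at 8.01 and 6.11 TPM (7.06 ± 1.34). Bmp7, a BMP of epithelia and kidney, was at 6.33 and 6.70 TPM (6.52 ± 0.262), so Tgfb1 and Bmp7 overlapped and had no order. Gdf10, also called BMP3b, followed at 3.18 and 4.25 TPM (3.72 ± 0.757), below Bmp7 in both libraries.

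The next ligands lay close to 2 TPM. Tgfb3 was at 2.15 and 2.4 TPM (2.28 ± 0.177). Gdf11, an activin-like factor of body patterning, was at 2.43 and 1.87 TPM (2.15 ± 0.396). Tgfb2 was at 2.03 and 1.96 TPM (2.00 ± 0.0495). Gdf11 overlapped with both others and had no order with them, while Tgfb3 was above Tgfb2 in both libraries. Inha, the inhibin alpha subunit that pairs with activin subunits and thereby lowers activin signalling, was at 1.43 and 1.42 TPM, and Bmp2 was at 1.04 and 1.14 TPM from 106 and 125 counts. Gdf15, a stress-induced factor, lay on either side of the threshold at 0.98 and 1.16 TPM.

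Several ligands with classical roles in the thymus were below 1 TPM in this whole-organ RNA. Bmp4 was at 0.67 and 0.66 TPM from 39 and 41 counts. Fgf10 was at 0.52 and 0.74 TPM from 61 and 95 counts. Fgf7, the keratinocyte growth factor, was at 0.64 and 0.39 TPM from 31 and 28 counts. Fgf8, known for its part in forming the pharyngeal pouches, had 3 and 5 counts (0.14 and 0.16 TPM). The activin subunit genes Inhba (0.21 and 0.22 TPM) and Inhbb (0.47 and 0.77 TPM) were also below 1. Fgf3, an FGF of embryonic ear and tail, reached 0.72 and 0.85 TPM, and Gdf3, a factor of early embryos, reached 0.69 and 0.74 TPM.

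The 31 ligands below 1 TPM in both libraries ran from 0 to 0.89 TPM, the highest being Gdf9, an oocyte factor, in replicate 1 (0.3 TPM in replicate 2). Across all roles, 8 of the 64 genes had 3 counts or fewer in both libraries. Bmp10, a BMP of the heart, had 0 in both, which allows up to 3 counts or 0.0768 and 0.0722 CPM, the count scaled to the library total (counting error only). Neighbours in the genome could differ widely in level. Gdf10 (chr14:33923587-33937983) and Gdf2 (chr14:33941039-33947198) follow each other on the plus strand, and Gdf2, which encodes the vascular ligand BMP9, was at 0.01 and 0.02 TPM against 3.18 and 4.25 TPM of Gdf10. Fgf3, Fgf4 and Fgf15 lie in a row between chr7:144838083 and chr7:144900953, all on the plus strand. In that row Fgf4, an FGF of early embryos, had 19 and 3 counts, and Fgf15, a gut hormone, had 12.5 and 12.46 counts, with 25.7% of its exon bases shared with genes on the other strand.

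A trio of receptor genes stood above the rest. Fgfr2, the receptor tyrosine kinase for FGF7 and FGF10 in its epithelial form, was at 23.4 and 22.9 TPM (23.2 ± 0.346, SD, n = 2) from 1716 and 1843 counts. Tgfbr2, the type II receptor that binds TGF-beta, was at 21.6 and 22.9 TPM (22.2 ± 0.926) from 2963 and 3391 counts. Tgfbr1, the type I receptor that Tgfbr2 activates, was at 21.1 and 22.0 TPM (21.5 ± 0.658) from 3355 and 3750 counts. Tgfbr2 and Tgfbr1 overlapped between libraries, while Fgfr2 was above Tgfbr2 by a factor of 1.04 only and, without Fgfr2-217, was at 13.0 and 14.8 TPM, below both. The next receptor, the co-receptor Tgfbr3 (betaglycan), was at 9.43 and 8.4 TPM (8.92 ± 0.728). The libraries did not overlap between Tgfbr3 and the 3 receptors above it. Among detected genes, the largest shares of exon bases that also belong to a gene on the other strand were 12.4% in Tgfb3 and 7.84% in Acvr2a, and among the genes below 1 TPM they were 46.7% in Bmp5 and 40.3% in Gdf5.

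Among the receptors for BMP and activin, the BMP type I receptor Bmpr1a was highest, at 6.74 and 6.82 TPM (6.78 ± 0.0566). The activin type I receptor Acvr1b was at 3.79 and 3.26 TPM (3.53 ± 0.375). The type II receptors followed, with Acvr2b at 3.11 and 2.19 TPM (2.65 ± 0.651), Bmpr2 at 2.76 and 2.23 TPM (2.50 ± 0.375) and Acvr2a at 2.05 and 1.47 TPM (1.76 ± 0.41). Fgfr1 fell among them at 2.57 and 2.60 TPM (2.59 ± 0.0212) and had no order with Acvr2b or Bmpr2. Both values of Fgfr1 lie below their own deposited intervals (2.74 to 4.17 and 2.77 to 4.13 TPM), which held for no other detected gene in both libraries. The BMP type I receptor Acvr1 was at 1.28 and 0.79 TPM. Fgfr3 (0.6 and 0.55 TPM) and the type I receptor Bmpr1b (0.42 and 0.28 TPM) were below 1 in both libraries, and Fgfr4, a receptor of liver, had 1 and 5 counts.

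Summed over genes, ligands reached less than receptors, and the gap differed by family. All ligands together summed to 51.1 and 53.4 TPM (52.2 ± 1.61), against 98.8 and 96.5 TPM (97.6 ± 1.68) for all receptors, a ligand-to-receptor ratio of 0.517 and 0.553. For TGF-beta the 3 ligands summed to 12.2 and 10.5 TPM against 52.1 and 53.3 TPM for the 3 receptors, a ratio of 0.234 and 0.196. For FGF the 18 ligands summed to 19.2 and 22.3 TPM against 26.6 and 26.1 TPM for the 4 receptors, a ratio of 0.721 and 0.855, and most of the ligand sum was Fgf21. That order of FGF receptors over FGF ligands rests on 1 transcript, Fgfr2-217, which starts in exons of another gene and ends in exons of Fgfr2 alone. Without the whole transcript the FGF receptors summed to 16.2 and 17.97 TPM, below the ligands in both libraries, and the ratio was 1.18 and 1.24. The turned order rests in the same way on 1 ligand. Fgf21 was at 14.7 and 17.4 TPM, and the other 17 FGF ligands were each below 1 TPM in both libraries. For BMP, GDF and activin the 20 ligands summed to 19.7 and 20.6 TPM against 20.2 and 17.0 TPM for the 7 receptors, a ratio of 0.98 in replicate 1 and 1.21 in replicate 2, so that no order held in this family. By family, 1 of 18 FGF ligands was detected against 2 of 4 FGF receptors. The counts were 3 of 3 ligands against 3 of 3 receptors for TGF-beta. They were 5 of 20 ligands against 5 of 7 receptors for BMP, GDF and activin. Of all protein-coding genes 57.3% were detected at the same threshold, and the share of the FGF receptors lay near it. RNA levels of genes that make secreted proteins and of genes that make receptors were set side by side per length, and protein was not measured.

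**Figure D2:**
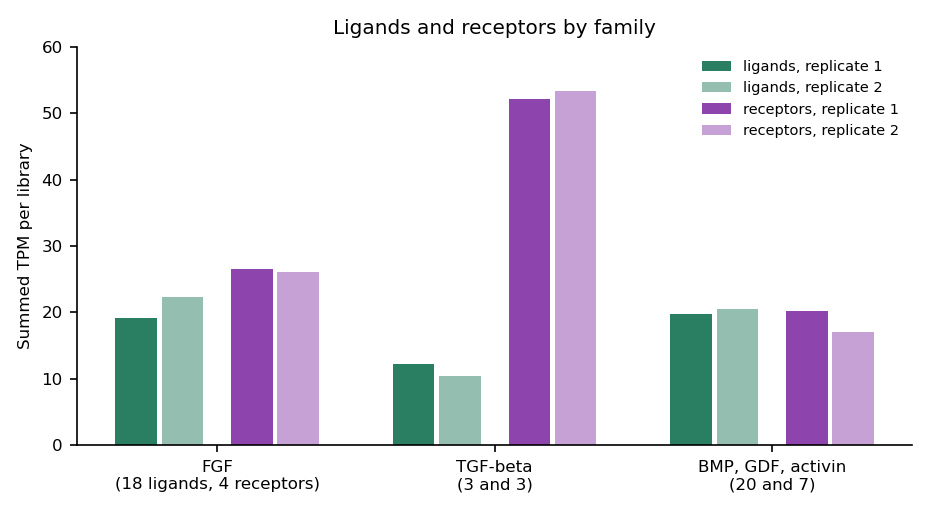
Summed TPM of ligands (green) and receptors (purple) in 3 families, dark bars for replicate 1 and pale bars for replicate 2. In the TGF-beta family the receptors summed to 52.1 and 53.3 TPM over ligands of 12.2 and 10.5 TPM, and in the BMP, GDF and activin family they lie closer, with ligands at 19.7 and 20.6 TPM and receptors at 20.2 and 17.0 TPM; the FGF receptors, at 26.6 and 26.1 TPM as drawn, would be at 16.2 and 17.97 TPM without Fgfr2-217, below the ligands at 19.2 and 22.3 TPM.

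The transcript tables split the receptor genes into forms that bind different ligands. The outer part of Fgfr1, Fgfr2 and Fgfr3 is coded with either of a pair of alternative exons, called IIIb and IIIc. In FGFR2 the IIIb form is the epithelial one that binds FGF7 and FGF10, and the IIIc form is the one of mesenchyme. Exon IIIb of Fgfr2 (chr7:130199758-130199905, 148 nt, minus strand, GRCm38) is printed from the GENCODE M21 transcripts because the transcripts that hold it took most of the TPM assigned to either form; all of it is in capitals, as the bases that mark the epithelial form.
Fgfr2 exon IIIb: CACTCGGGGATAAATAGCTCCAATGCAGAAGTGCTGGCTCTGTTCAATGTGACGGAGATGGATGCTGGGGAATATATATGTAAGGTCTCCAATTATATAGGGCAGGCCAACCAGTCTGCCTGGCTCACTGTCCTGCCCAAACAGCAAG
Transcripts with exon IIIb were assigned 6.47 and 6.24 TPM, against 0.37 and 0.64 TPM for the transcript with exon IIIc. Of the TPM of both forms together, IIIb took 94.6% and 90.7% (92.6 ± 2.75, SD, n = 2). The IIIb transcripts were mainly Fgfr2-211 and Fgfr2-210, and the only IIIc transcript with reads was Fgfr2-207. The authors' deposited intervals, whose level is not stated, were 3.01 to 4.98 and 2.62 to 4.56 TPM for Fgfr2-211, above those of Fgfr2-207, which ended at 1.27 and 1.07 TPM. Some estimates lie outside their own interval, as Fgfr2-210 does in replicate 1 with 2.00 TPM and an interval of 0.389 to 1.98 TPM.

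Fgfr1 was split the other way at a far lower level. Its transcripts with exon IIIc were at 1.94 and 1.80 TPM, against 0.14 and 0.41 TPM with exon IIIb, so IIIc took 93.3% and 81.4% of both. The deposited intervals of the IIIb transcript Fgfr1-214 (up to 0.363 and 0.667 TPM) began near 0. They overlapped those of the highest IIIc transcript, Fgfr1-203 (0.233 to 1.26 and 0.398 to 1.36 TPM). A further transcript of Fgfr1 holds both exons and was at 0.17 and 0.05 TPM. Fgfr3 transcripts with exon IIIb were at 0.43 and 0.3 TPM, against 0.13 and 0.15 TPM with exon IIIc, from a gene below 1 TPM. Exon IIIb took 76.8% and 66.7% of both forms of Fgfr3, the same side as in Fgfr2, but the deposited intervals of the IIIb transcript Fgfr3-211 (up to 0.362 and 0.296 TPM) and of the IIIc transcripts Fgfr3-209 (up to 0.241 and 0.174 TPM) and Fgfr3-201 (up to 0.214 and 0.203 TPM) all began near 0 and overlapped.

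Most of the Fgfr2 signal lay in transcripts with neither exon, at 16.6 and 16.1 TPM (70.8% and 70.0% of the gene). The largest was Fgfr2-217 at 10.4 and 8.17 TPM, which took 44.4% and 35.6% of the gene's TPM (40.0 ± 6.21) and 713 and 604 counts. This annotated transcript of 2425 nt starts with 2 exons (chr7:133123141-133123350 and chr7:133081757-133081860) that lie base for base inside exons of Ctbp2, a transcriptional co-repressor gene on the same strand, and then joins the last 5 exons of Fgfr2. The first 2 exons have 210 and 104 nt. The last 5, with 1673 nt in the final one, share no base with exons of Ctbp2, and leaving out Fgfr2-217 leaves these out as well. Ctbp2 itself was at 9.79 and 9.22 TPM. Whether reads of Ctbp2 entered this transcript was not tested. Fgfr2-226, annotated as a target of nonsense-mediated decay, took a further 13.3% and 18.2%.

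Tgfbr2 was divided between both of its annotated forms. Tgfbr2-202 was at 12.6 and 13.3 TPM (58.1% ± 0.276 of the gene) and Tgfbr2-201 at 9.00 and 9.63 TPM (41.9% ± 0.276). The deposited intervals ran from 10.0 to 13.8 and from 10.8 to 15.2 TPM for Tgfbr2-202, and from 7.28 to 11.1 and from 7.33 to 11.8 TPM for Tgfbr2-201, so they overlapped. Tgfbr2-202 has 8 coding exons against 7 and a coding length of 1776 nt against 1701 nt. The exon of 75 nt that Tgfbr2-201 lacks (chr9:116158271-116158345, minus strand, GRCm38) is printed from the GENCODE M21 transcript because it alone separates the forms in coding sequence; all of it is in capitals, as the bases present in Tgfbr2-202 only.
Tgfbr2 extra exon: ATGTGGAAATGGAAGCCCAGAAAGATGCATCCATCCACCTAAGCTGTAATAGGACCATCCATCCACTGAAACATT
The other highly expressed genes each had a main form. Tgfbr1-201 took 93.0% of its gene's TPM, Tgfbr3-201 took 92.5%, Bmpr1a-201 took 97.7%, Tgfb1-201 took 90.1% and Bmp7-201 took 87.1%, as means of both libraries.

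**Figure D3:**
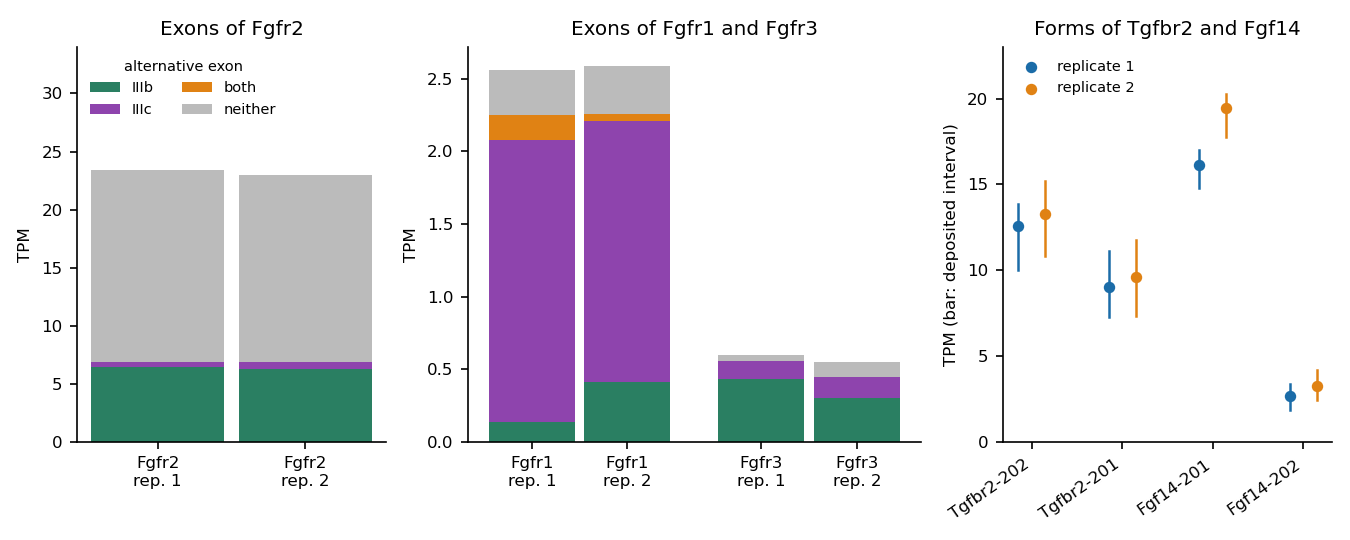
TPM assigned to transcripts with exon IIIb, IIIc, both or neither for Fgfr2 (left) and for Fgfr1 and Fgfr3 (middle) as stacked bars from 0, and TPM of the forms of Tgfbr2 and Fgf14 (right) as points with the authors' deposited intervals as bars, by library. Green (IIIb, 6.47 and 6.24 TPM) exceeds purple (IIIc, 0.37 and 0.64 TPM) in Fgfr2, grey (neither exon) is the largest part there, and the intervals of the Tgfbr2 forms overlap while those of the Fgf14 forms do not.

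The antagonists were low except for Fst. Follistatin, encoded by Fst, binds activins, and Fst was at 3.27 and 2.58 TPM (2.93 ± 0.488, SD, n = 2). The BMP-binding chordin gene Chrd was at 0.95 and 0.71 TPM. Grem1, which encodes gremlin, was at 0.26 and 0.19 TPM, and Nog, which encodes noggin, was at 0.13 and 0.06 TPM from 6 and 3 counts. Both libraries gave the order Fst, Chrd, Grem1, Nog. The protease Bmp1, which is not a BMP but cleaves procollagens and chordin, was at 5.13 and 5.64 TPM (5.39 ± 0.361).

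Fgf14 had a level close to those of the highest receptors, although its protein is not a secreted signal. The homologues Fgf11 to Fgf14 stay inside cells, bind voltage-gated sodium channels and are known mainly from neurons. Fgf14 was at 18.8 and 22.7 TPM (20.8 ± 2.76) from 1742 and 2270 counts, and 5.26% of its exon bases are shared with a gene on the other strand. Fgf13 was at 1.62 and 1.80 TPM (1.71 ± 0.127), while Fgf11 (0.54 and 0.69 TPM) and Fgf12 (0.32 and 0.36 TPM) were below 1. Both annotated forms of Fgf14 share 4 of 5 coding exons and differ in the first, which is printed for each from the GENCODE M21 transcripts (minus strand of chromosome 14, GRCm38; chr14:124192329-124192521, 193 nt, for Fgf14-201 and chr14:124676510-124676717, 208 nt, for Fgf14-202), from the start codon, which is in capitals.
Fgf14-201 first coding exon: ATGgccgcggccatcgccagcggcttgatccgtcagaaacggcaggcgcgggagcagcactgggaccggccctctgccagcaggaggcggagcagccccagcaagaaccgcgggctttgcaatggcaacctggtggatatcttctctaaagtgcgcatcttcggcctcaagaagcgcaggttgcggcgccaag
Fgf14-202 first coding exon: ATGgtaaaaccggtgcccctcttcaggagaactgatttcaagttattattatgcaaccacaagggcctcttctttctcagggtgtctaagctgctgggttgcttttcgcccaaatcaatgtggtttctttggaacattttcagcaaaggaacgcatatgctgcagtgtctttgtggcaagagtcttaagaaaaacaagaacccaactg
Fgf14-201 took 16.2 and 19.4 TPM (85.7% ± 0.247 of the gene) and Fgf14-202 took 2.65 and 3.28 TPM (14.3% ± 0.247), with deposited intervals that did not overlap.

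Differences between the littermates were small for most genes with enough counts to compare. Ratios were computed after scaling with edgeR's TMM method, as replicate 1 over replicate 2, for the 30 genes with a mean of at least 50 counts. They ran from -0.77 to 0.56 on the log2 scale with a median of -0.07, beside -0.02 for all genes. After this scaling, 12 of the 30 genes were higher in replicate 1 and 18 in replicate 2, and 46.1% of all genes were higher in replicate 1. Scaled to the spike-ins instead, all genes moved to a median of -0.71 and all 30 genes were higher in replicate 2, so directions are relative to the bulk of genes. The 13 ligands had a median of -0.21, with 2 higher in replicate 1 and 11 in replicate 2. The 12 receptors had a median of 0.15, with 7 higher in replicate 1 and 5 in replicate 2, but that median was -0.04 among receptors with a mean of at least 500 counts. With 1 library per pup these ratios have no replicate check.

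Only Inhbb, the activin B subunit gene, passed 1.5-fold, which made 1 of 30 genes, beside 4.75% of all genes and 3.1% of protein-coding genes. It was higher in replicate 2, as were 1.19% of all genes past that fold, and none of the 30 genes passed it in the direction of replicate 1, beside 3.55% of all genes. It had 57 counts in replicate 1 and 102 in replicate 2, a log2 ratio of -0.77 (95% exact counting interval -1.27 to -0.29) or 1.71-fold more in replicate 2. Fgf10 came next at -0.57 (-1.06 to -0.10), and Acvr1 was the furthest in the other direction at 0.56 (0.11 to 1.02). After the same scaling, all markers of 6 lists were higher in replicate 2: thymocytes (5 of 5), thymic epithelium (5 of 5), mesenchyme (6 of 6), macrophages (3 of 3), skeletal muscle (4 of 4) and lung and airway (2 of 2). The epithelial regulator Foxn1 had a ratio of -0.61 among them. All markers of fat (3 of 3), parathyroid (3 of 3), squamous epithelium (2 of 2) and thyroid (2 of 2) were higher in replicate 1, and endothelium, heart and cartilage were mixed. The part of these tissues in the ratios of Inhbb, Fgf10 and Acvr1 was not tested. Among genes of high count the ratios were smaller: Fgf14 had -0.32 (-0.41 to -0.23), and the ratios of Fgfr2 (-0.04), Tgfbr2 (-0.13) and Tgfbr1 (-0.10) lay near 0.

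**Figure D4:**
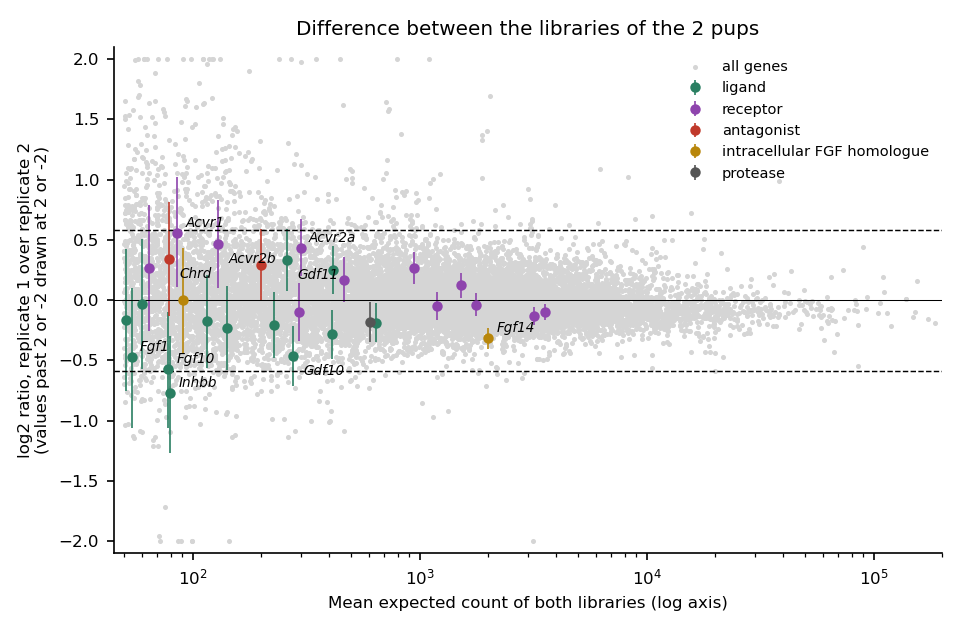
Log2 ratio of replicate 1 over replicate 2, after TMM scaling, against the mean expected count (log axis) for the 30 genes with a mean of at least 50 counts, coloured by role, with 95% exact counting intervals, over all genes in grey; dashed lines mark 1.5-fold, and grey values past 2 or -2 are drawn at those limits. Inhbb at -0.77 is the only coloured point beyond a dashed line, with Fgf10 at -0.57 and Acvr1 at 0.56 close to the lines; scaled to spike-ins, all 30 genes including Acvr1 were higher in replicate 2.

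Other genes of the pathways were measured as short lists, beside 57.3% of all protein-coding genes detected at the same threshold. The Smad genes, those that carry the signals and the inhibitory Smad6 and Smad7 together, had a median of 13.5 TPM (mean of both libraries), and 6 of 8 were detected, led by the TGF-beta and activin mediator Smad2 at 39.1 and 38.9 TPM. Smad1, a BMP mediator, was at 19.8 and 21.1 TPM and the TGF-beta mediator Smad3 at 17.4 and 15.3 TPM. The third BMP mediator, Smad9, was at 0.22 and 0.21 TPM, and the inhibitory Smad6 was at 1.11 and 0.8 TPM. All 5 repressors and ubiquitin ligases of Smads were detected, with Tgif1 at 30.0 and 31.3 TPM, Skil at 14.01 and 12.1 TPM and Ski at 7.63 and 6.71 TPM.

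Most listed genes known as targets of the pathways were detected, beside 57.3% of all protein-coding genes, and what induced them was not tested. Of 6 genes known to respond to BMP, 5 were detected: Id3 at 269 and 217 TPM, Id2 at 125 and 122 TPM and Id1 at 19.7 and 19.0 TPM were the highest, and Msx2 (0.06 and 0.03 TPM) was below 1. The Id genes are also induced by other signals in T cells. All 9 FGF target and feedback genes were detected, led by the phosphatase gene Dusp6 at 27.5 and 26.6 TPM, Spry2 at 25.1 and 22.7 TPM and the transcription factor gene Etv5 at 10.0 and 12.1 TPM. Of 4 TGF-beta target genes 3 were detected, namely Tgfbi (18.7 and 16.5 TPM), the integrin gene Itgae (6.55 and 8.71 TPM) and Pmepa1 (3.46 and 2.58 TPM), while Ccn2 (0.64 and 0.78 TPM) was below 1. Among FGF signal adaptors 5 of 6 were detected, led by Grb2 at 113 and 115 TPM, Ptpn11 at 15.6 and 13.2 TPM and Frs2 at 5.34 and 5.64 TPM. Frs3 was at 1.12 and 0.81 TPM.

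Most listed genes that store, release and carry the ligands were detected, beside 57.3% of all protein-coding genes. TGF-beta is secreted in a latent form, and 8 of 11 genes of its storage and release were detected, with a list median of 2.38 TPM. The highest were Nrros, which tethers latent TGF-beta on myeloid cells, at 84.8 and 78.7 TPM, the integrin gene Itgav at 45.04 and 35.8 TPM and the protease gene Furin, which cleaves the precursor, at 7.53 and 5.66 TPM. The matrix gene Ltbp2 (0.59 and 0.85 TPM) and the integrin partners Itgb8 (0.31 and 0.4 TPM) and Itgb6 (0.09 and 0.07 TPM) were below 1. Of 10 further antagonists and carriers 7 were detected, with a list median of 4.805 TPM. The highest were Fstl1 at 51.2 and 60.2 TPM and the BMP-binding Twsg1 at 53.2 and 53.1 TPM, which overlapped and had no order. The BMP antagonist gene Nbl1 followed at 16.3 and 17.3 TPM. Chrdl1 (0.38 and 0.37 TPM), Bmper (0.33 and 0.31 TPM) and Sostdc1 (0.33 and 0.23 TPM) were below 1.

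Of 10 further receptors and co-receptors 5 were detected, a share near the 57.3% of all protein-coding genes. The endothelial co-receptor gene Eng was the highest at 23.5 and 21.5 TPM, followed by the endothelial type I receptor gene Acvrl1 at 5.27 and 4.74 TPM and the BMP co-receptor gene Rgmb at 3.49 and 3.31 TPM. Klb, the co-receptor that FGF21 needs to signal, had 11 and 2 counts (0.11 and 0.02 TPM), and its relative Kl had 8 and 4 counts (0.05 and 0.03 TPM), beside 14.7 and 17.4 TPM of Fgf21. Rgma (0.76 and 1.03 TPM), Tdgf1 (0.43 and 0.58 TPM) and Acvr1c (0.27 and 0.32 TPM) also missed 1 TPM in at least 1 library. Of 9 further ligands only Lefty1, an antagonist of Nodal signalling, was detected, at 2.34 and 1.42 TPM. The others were Lefty2 (0.71 and 0.81 TPM), the muscle factor gene Mstn (0.22 and 0.28 TPM), Bmp8a, Bmp8b, Nodal, Amh, Inhbe and Inhbc (these 6 between 0 and 0.19 TPM), and Inhbc had 0 counts in both libraries.

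**Figure D5:**
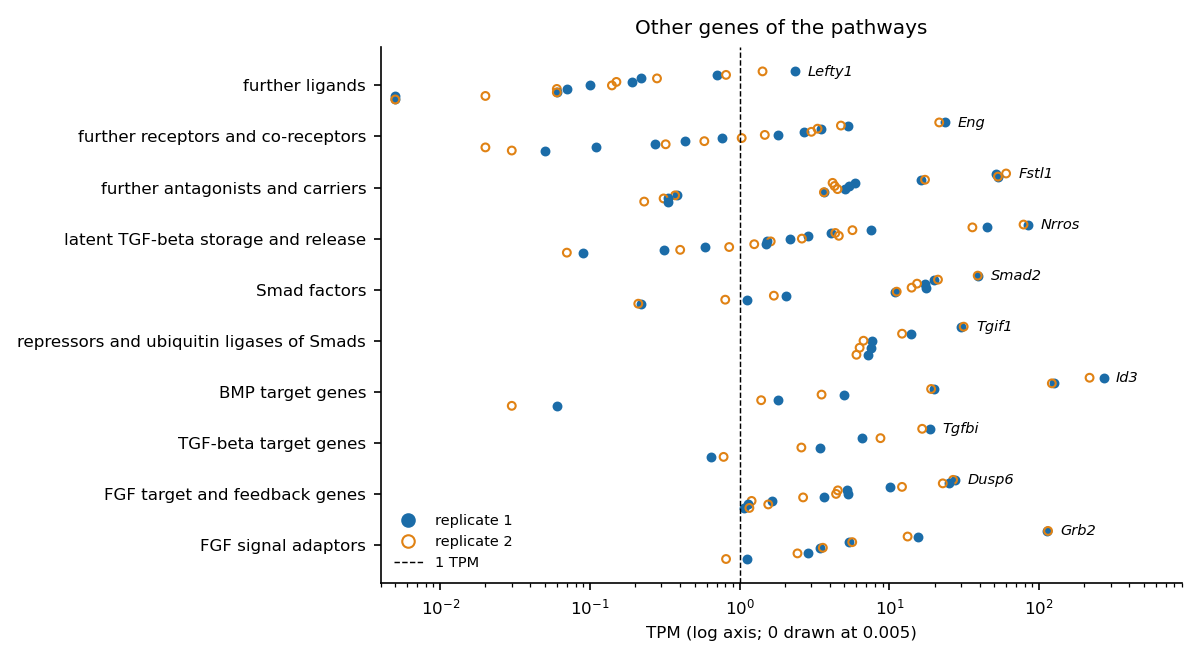
TPM (log axis, values of 0 drawn at 0.005) of the genes in 10 lists of other pathway genes, filled points for replicate 1 and open points for replicate 2. The gene with the highest mean of each list is named. All 9 FGF target and feedback genes and all 5 Smad repressors and ligases lie right of the dashed line at 1 TPM in both libraries, against 1 of 9 further ligands. Of all protein-coding genes 57.3% passed that line in both libraries.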

How the data were processed

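Per the labels, total RNA of both thymus lobes of 2 littermate pups was extracted with a mirVana kit, and a kit manual for low input RNA was cited. The genome build is mm10 (per the labels) and the annotation M4 (per the deposited read-me texts). Not given in the sources used here are aligner, quantifier, use of strand and interval level, so reads of overlapping genes on opposite strands cannot be told apart.

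The authors deposited, per gene and per transcript, expected counts (estimated counts that need not be whole, without normalization), TPM (scaled for transcript length and to the library), FPKM (scaled for length and mapped reads), each transcript's percent of its gene's TPM, and interval bounds, which were read as a score with no stated level. Depth was 39046411 and 41576822 expected counts, and 26345 rows that name no gene (0.00179% and 0.00107% of counts) were left out. Counts of 17915 genes gave a chi-square of 19.1 per degree of freedom, which was computed only to see whether the files could be 1 library deposited under both labels. They are littermates, and their spread may be partly technical.

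Genes were matched to GENCODE M21 (GRCm38) by identifier without version. The genes, roles and lists were chosen with earlier results of these data known. Values are given for every member detected (1 TPM in both libraries), for the 5 highest below that and for members with classical roles, and in the other lists for the 3 highest and those below 1. Expected counts were rounded and scaled with edgeR 4.0.16 (TMM, R 4.3.3), and log2 ratios of replicate 1 over replicate 2 used a prior count of 0.5 and a mean count of at least 50. Intervals are 95% exact binomial (Clopper-Pearson) and, like the floor of 3 counts, cover counting error only, as reads are not independent molecules. With 1 group of 2 libraries no test between groups was made and no p-value is given. Alternative exons were found in the annotation as neighbouring internal exons of which few or no transcripts hold both. Genes of 2 lists and an exon sequence are left out and not reported here. Alternatives changed the threshold, unit, scaling (DESeq2 1.42.0, TPM, spike-ins), filters, gene roles and transcripts, and used each library alone. Leaving out Fgfr2-217 and running the FGF family alone were chosen after seeing the data. Scripts ran in Python 3.11.15 with numpy 2.4.6, pandas 2.3.3, matplotlib 3.10.9 and scipy 1.17.1, and were tested on simulated data.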

Additional observations from a re-analysis of the deposited data

How the results depend on the processing

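Over all families together, receptors kept higher sums and medians than ligands under every alternative run. For FGF alone, log2 of receptors over ligands was 0.35 (0.23 to 0.47 in single libraries) and turned to -0.28 without Fgfr2-217, which follows from the transcript left out; the other families were not run under the alternatives. The number of genes detected is set by the threshold: at 0.5 TPM 14 ligands and 2 antagonists passed, at 2 TPM 5 ligands, and at 50 counts 2 antagonists. The shares of all genes at these thresholds were not computed, so these counts cannot be set against genes at large. Medians of ligands, receptors and antagonists were 0.26, 2.04 and 0.40 in FPKM, and 2.42, 5.15 and 2.93 TPM over detected genes only. Rescaled to protein-coding genes, medians of ligands and receptors were 0.404 and 3.23 TPM and their sums 63.0 and 118 TPM. Their sums were 39.7 and 74.2 in FPKM, and 42.3 and 95.7 TPM over detected genes, where log2 of receptors over ligands was 1.18 instead of 0.90. With Fgf11 to Fgf14 and Bmp1 as ligands, the ligand median was 0.385 TPM, the sum 81.0 TPM and that log2 ratio 0.27. Adding Bmp8a and Bmp8b gave a ligand median of 0.305 TPM. Without Tgfbr3 the receptors summed to 88.7 TPM (log2 ratio 0.76), and without Fgfr2-217, an alternative chosen after seeing the data, to 88.4 TPM (0.76).

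Between the libraries, 3 of 30 genes passed 1.5-fold by TPM ratio (Inhbb, Acvr1 and Fgf1), beside 5.82% of all genes. At a mean of at least 10 counts 3 of 48 passed (Inhbb, Fgf18 and Fgf4; 12.1% of all genes), at 500 counts 0 of 9 (1.18%) and with no filter 13 of 64 (20.3%, beside 18.7%). Scaling by spike-ins moved the median of all genes to -0.71 (-0.02 with TMM), from 659 and 427 spike-in counts, and gave medians of -0.76 for all 30 genes, -0.90 for ligands and -0.54 for receptors, with 19 of 30 past 1.5-fold (63.3%, beside 72.0% of all genes) and all 30 higher in replicate 2. Among protein-coding transcripts only, exon IIIc took 87.4% of Fgfr1, and exons IIIb and IIIc took 39.5% and 3.20% of Fgfr2. In these cases the change follows from which genes, transcripts or scaling each alternative uses.

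With each library alone, 24 genes were detected in either, with 9 to 10 ligands, 10 to 11 receptors and 1 antagonist. The share of all genes was not computed for single libraries. Medians were 0.32 to 0.35 TPM for ligands, 2.42 to 2.94 TPM for receptors and 0.45 to 0.605 TPM for antagonists. Sums were 51.1 to 53.4 TPM and 96.5 to 98.8 TPM for ligands and receptors, with log2 ratios of receptors over ligands of 0.85 to 0.95. Exon IIIb took 5.47% to 15.8% of Fgfr1, 27.2% to 27.6% of Fgfr2 and 54.5% to 71.7% of Fgfr3, and exon IIIc 69.5% to 75.8%, 1.58% to 2.79% and 21.7% to 27.3% of the same genes. Ratios between the libraries cannot be computed from 1 library. No paired analysis was possible because the series has 1 group. Most ligands below 1 TPM rest on few counts, which limits their order at this depth.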

Other observations

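Several genes have symbols that begin like those described but name other proteins or copies, and they were kept apart. Fgfr1op2, a cytoskeletal gene named for a fusion with FGFR1, was at 165.0 and 164.8 TPM, and the centrosome gene Fgfr1op was at 38.9 and 35.6 TPM, both above Fgfr1 (2.57 and 2.60 TPM). The kinase gene Bmp2k was at 24.5 and 20.2 TPM, beside 1.04 and 1.14 TPM of Bmp2. Tgfb1i1, which encodes a focal adhesion adaptor, was at 10.2 and 11.5 TPM, and the Tgfbr3-like gene Tgfbr3l was at 2.26 and 1.23 TPM. The BMP ligand genes Bmp8a (0.19 and 0.15 TPM) and Bmp8b (0.1 and 0.14 TPM) are close copies of each other, so the division of their reads is uncertain. The antisense gene Fgf2os had 4 and 1 counts, beside 3 and 2 counts of Fgf2, and the pseudogene Fgfr3-ps had 0 in both libraries.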
